A study of Mus musculus with 15 samples.

Results

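Collagens, laminins, fibulins, fibrillins, fibronectin, decorin and lumican were followed through RNA sequencing of the mouse thalamus after repeated cocaine or saline. The members were every listed gene whose symbol is Col, number, a, number; Lama, Lamb or Lamc with a number; Fbln or Fbn with a number; or Fn1, Dcn or Lum. The deposited tables list 25080 genes, of which 64 matched, and 29 of these 64 had at least 1 TPM (a transcript level corrected for gene length and library total) in at least 3 libraries and were tested. The other 35 stayed below that level. Tested members comprised 17 of 44 collagens, 7 of 11 laminin chains, Fbln1, Fbln5, Fbn1, Fn1 and Dcn.

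These proteins build the extracellular matrix. Fibrillar collagens form tensile fibres, collagen IV and laminins form the sheet-like basement membranes that surround vessels and line the meninges, and fibrillins and fibulins make up microfibrils and elastic fibres. Collagens are trimers and laminins join an alpha, a beta and a gamma chain, so chains of one protein are often made together. In the brain, basement membrane genes are known mainly from vascular cells, and fibrillar collagen genes from the fibroblasts of the meninges, large vessels and choroid plexus stroma.

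Thalami came from adult male mice of 2 to 4 months carrying a floxed Maged1 allele. Control mice had no Cre, and cKO mice carried Vglut2-Cre, which removes Maged1 in neurons that express this glutamate transporter and not in the other cells of the tissue. All mice received saline for 3 days and then cocaine at 20 mg/kg or saline, injected intraperitoneally, for 5 days. Sample titles give 4 libraries each to control saline, control cocaine and cKO saline, and 2 to cKO cocaine, 14 in all, and 1 further sample was not analysed here. Values below are TPM divided by a library scaling factor (TMM, which equalizes the bulk of genes between libraries) and are called scaled TPM.

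Maged1, the targeted gene, went against the labels of the cocaine libraries. Its scaled TPM was 153.1, 167.2, 149.9 and 151.3 in control saline and 77.4, 76.6, 68.2 and 64.6 in cKO saline. After cocaine it was 58.5, 87.7, 77.3 and 70.7 in the 4 labelled control and 153.8 and 174.0 in the 2 labelled cKO. The labelled control cocaine libraries thus sat at the level of cKO saline and the labelled cKO cocaine libraries at that of control saline, so every direction drawn from cocaine libraries below holds for the labels as given. In 4 saline libraries (control replicates 3 and 4, cKO replicates 1 and 2) the genotype tag names the other genotype than the title. Maged1 in these went with the titles, at 149.9 and 151.3 in the control and 77.4 and 76.6 in the cKO replicates. A grouping by the tag thus puts saline libraries high and low in Maged1 together.

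Several libraries stood apart in other cells' markers. The 13 choroid plexus epithelium markers summed to 1488 scaled TPM in control saline replicate 1 and to 4.53 to 62.3 in the other libraries, with Ttr at 1412 there. The 16 fibroblast markers summed to 68.2 in that library and to 22.2 to 30.03 elsewhere. The 8 ependymal markers were lowest in the library labelled control cocaine replicate 4, at 4.60, and in cKO saline replicate 1, at 5.01, against 16.2 to 38.8 in the rest, and the 6 habenula markers were lowest in the same libraries, at 8.35 and 9.36. In the library labelled control cocaine replicate 1 the habenula markers were highest, at 171.7, against at most 76.4 elsewhere. The 8 hypothalamic markers were lowest in that library, at 4.16. Endothelial markers summed to 77.8 to 97.6 and pericyte and smooth muscle markers to 30.3 to 37.7. Both sums were highest in control saline replicate 1, against at most 91.9 and 37.3 in the other libraries. The thalamic markers Tcf7l2, at 73.9 to 124.2, and Slc17a6, at 69.3 to 103.8, were present in every library.

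The matrix genes were expressed at low levels in this tissue. Summed over the 64 members, scaled TPM ran from 92.2 in cKO saline replicate 1 to 142.6 in control saline replicate 1, with a median of 111.2. Col25a1, a transmembrane collagen made by neurons and shed as a component of amyloid plaques, was the most highly expressed member, at 21.4, 19.6, 20.5 and 20.6 in control saline. It ranged from 17.0 to 23.3 over the other 10 libraries. Its values in control saline did not overlap those of the next member, Fbln1, whose mean there was 8.38 ± 1.09 (SD, n = 4). Below it, each member's range in control saline overlapped that of its neighbour in the order, down to Col28a1 and Col10a1 at the bottom.

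**Figure D1:**
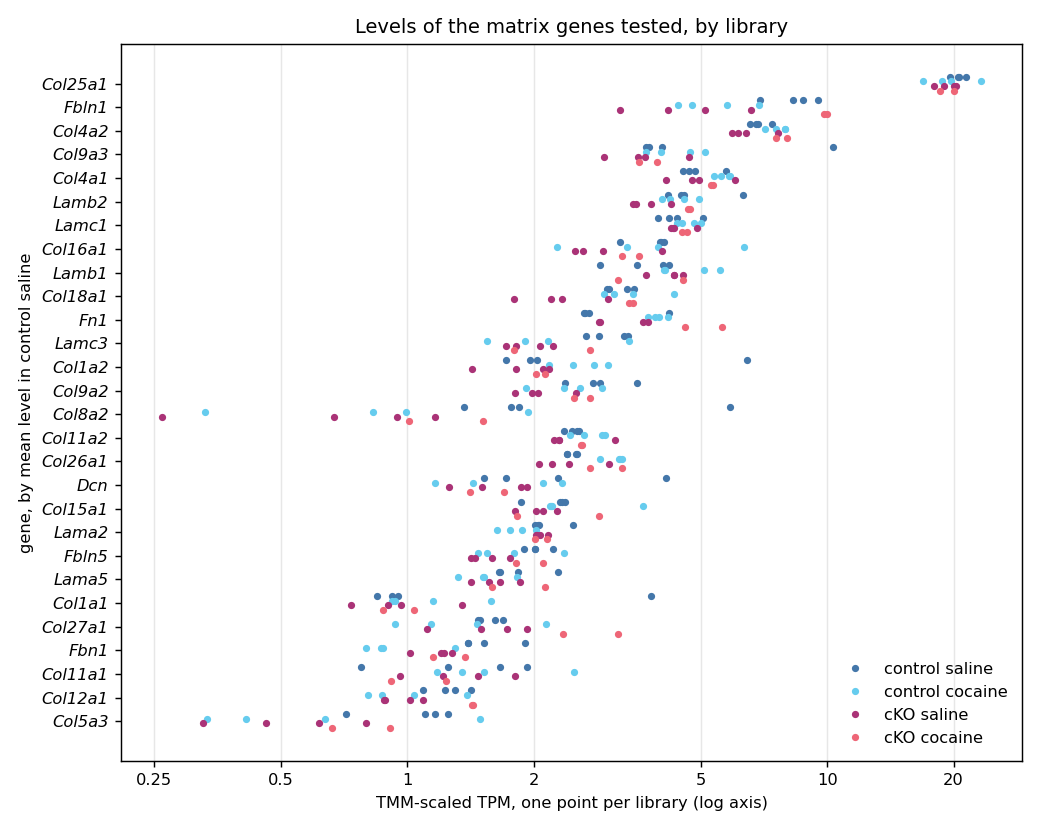
Scaled TPM (log axis) of the tested members (1 not shown), ordered by their mean in control saline, with 1 point per library coloured by labelled group. Col25a1 stands above the rest near 20, and control saline replicate 1 lies far to the right of its group for Col9a3, Col1a2, Col8a2, Dcn and Col1a1.

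Several basement membrane genes were among the next. Col4a2 and Col4a1, the chains of the collagen IV network found in all basement membranes, had means of 6.89 ± 0.36 and 4.96 ± 0.55 in control saline (SD, n = 4). Among laminin chains, Lamb2 was at 4.88 ± 0.95, Lamc1 at 4.41 ± 0.48 and Lama2, the alpha chain also known from muscle and vessels, at 2.15 ± 0.22 (SD, n = 4). The remaining 4 collagen IV chains, Col4a3 to Col4a6, stayed below the filter, as did Lama1, Lama3, Lama4 and Lamb3. Col18a1, the multiplexin that carries endostatin, was at 3.21 ± 0.23, and Fn1, the fibronectin gene, at 3.05 ± 0.76 (SD, n = 4).

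In the other classes, Col11a2 had the highest mean of the fibrillar collagens over all libraries, at 2.58, Col9a3 that of the collagens that sit on fibrils (FACIT), at 4.42, and Col26a1 that of the remaining network and anchoring collagens, at 2.72. None of the 6 collagen VI genes passed the filter; Col6a2 was the highest, at a mean of 0.654. Of the members below the filter, 27 did not reach 1 TPM in any library, 6 reached it in 1 library and 2, Col6a2 and Fbln7, in 2 libraries. Just inside the filter, Col5a3 reached 1 TPM in 4 libraries, control saline replicates 2 to 4 and the one labelled control cocaine replicate 1. Of the 6 members that reached 1 TPM in a single library, 5 did so in control saline replicate 1: Col3a1, Col4a5, Col8a1, Lama4 and Lum.

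Control saline replicate 1 held the highest level of 10 of the 29 tested members, against 9.36% of all 13471 tested genes. Over the 64 members it was highest for 22, and 14 were at least 2-fold above the median of the other 13 libraries. Of the 29 tested members, 5 were, beside 0.935% of all tested genes, and the others of the 14 lay below the filter. Col8a2, a short-chain network collagen known from the cornea, was at 5.88 there and at 0.261 to 1.94 in the others, a ratio of 5.81 to their median. Lum, which encodes the small proteoglycan lumican, was at 1.79 against 0.199 to 0.464. The fibrillar collagen genes stood out in the same way: Col1a1 was at 3.82 against 0.736 to 1.59, Col1a2 at 6.46 against 1.43 to 3.00 and Col3a1 at 1.18 against 0.175 to 0.541. Dcn, the related proteoglycan decorin, was at 4.13 against 1.17 to 2.34, and Col9a3 at 10.3 against 2.95 to 5.13.

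The elevation was uneven between genes. Col4a1 and Col4a2 were within the range of the other libraries, with ratios of 1.09 and 0.915 to their median, and Col25a1 was at 1.08. Fbln1 was at 1.05. Among laminin chains, Lamb2 at a ratio of 1.48, Lama5 at 1.38, Lama2 at 1.22, Lamc1 at 1.16, Lama1 at 1.36 and Lama4 at 1.63 were above every other library, and Lamb1, at 1.02, was not. The less common collagen IV chains were above every other library, Col4a3 at a ratio of 3.15, Col4a4 at 2.85 and Col4a5 at 2.25, although all at or below 1.02 scaled TPM. The fibroblast markers Igf2, at 24.2 against 3.92 to 7.66, and Mgp, at 11.8 against 3.41 to 6.18, moved with these genes, as did the choroid plexus markers Kl, at 14.3 against 0.123 to 1.06, and Folr1, at 8.65 against at most 0.830. The part of other tissue in this library's values was not tested. In bulk samples, fewer cells of a type and less RNA per cell cannot be told apart.

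**Figure D2:**
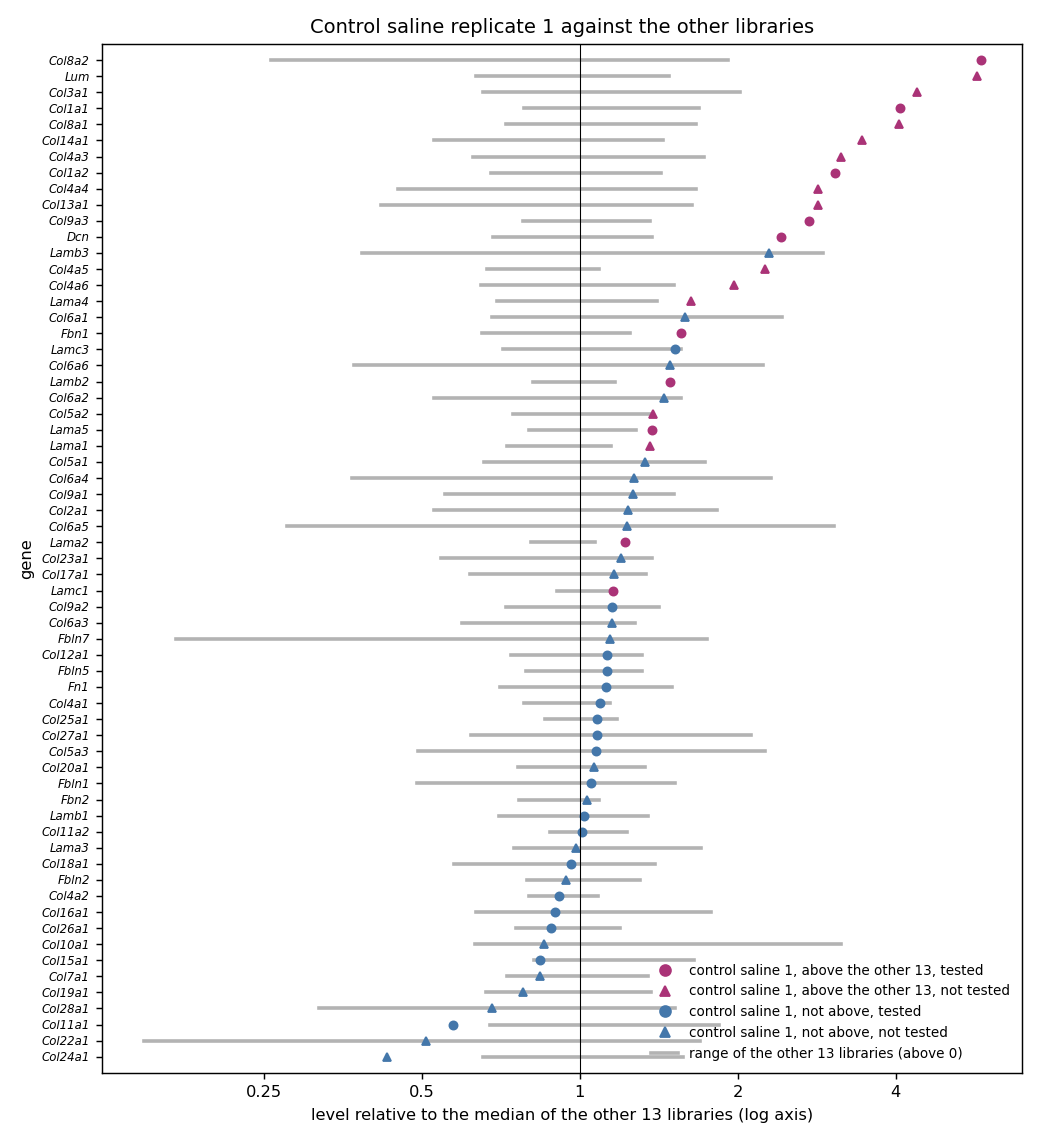
Level of the members (1 not shown) in control saline replicate 1 relative to the median of the other 13 libraries (log axis), with the range of those 13 as grey bars. The highest points are Col8a2, Lum, Col3a1, Col1a1 and Col8a1, at ratios of 4.06 to 5.81, and Col4a1, Col4a2 and Lamb1 lie between 0.915 and 1.09.

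Genes lying next to each other were compared, since several matrix genes sit in pairs (coordinates on GRCm38). Col4a1, at chr8:11198423-11312826 on the minus strand, and Col4a2, at chr8:11312805-11449287 on the plus strand, stand head to head and their annotated ends overlap by 22 bases. Their deposited TPM stayed in a narrow ratio, Col4a1 to Col4a2, of 0.654 to 0.851 over the 14 libraries. The other collagen IV chains also stand in head-to-head pairs and were much lower: the Col4a4 to Col4a3 ratio, for genes 71 bases apart, ran from 0.553 to 2.58, and the Col4a6 to Col4a5 ratio, for genes 1.3 kb apart, from 0.198 to 0.472. The Col1a1 to Col1a2 ratio, for genes on different chromosomes, ran from 0.377 to 0.642. Col4a1 with Col4a2, and Col1a1 with Col1a2, encode chains of one trimer. A narrow ratio was not confined to neighbours: that of Lama2 to Lamc1, laminin genes on different chromosomes, ran from 0.375 to 0.509. Dcn and Lum lie 47.0 kb apart on chromosome 10 and their ratio ran from 2.31 to 7.85. Col6a1 and Col6a2, 85.2 kb apart, had a ratio of 0.568 to 1.83 at no more than 1.20 scaled TPM. Col3a1 and Col5a2, 24.6 kb apart on chromosome 1, were at 0.175 to 1.18 and 0.261 to 0.482.

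Upstream sequences were available from RefSeq (GRCm38.p6) for 45 of the 64 members. The 250 bases before the annotated start are printed for Fbln1 and Col27a1, because they were called below, and for Col3a1 and Col8a1, because they were among the members highest in control saline replicate 1. Of the other called members, Fbn1 is not printed because its stretch overlapped an annotated exon, and Fn1 had no upstream sequence. Capitals mark motif matches on either strand, none of which overlapped. One motif searched was TATAAA, known as the TATA box. Another was CCAAT, a motif of many promoters known to bind the factor NF-Y. The third was GGGCGG, the GC box of Sp1-type factors. The last was CACGTG, an E-box known to bind factors of the bHLH-zipper family.
Fbln1: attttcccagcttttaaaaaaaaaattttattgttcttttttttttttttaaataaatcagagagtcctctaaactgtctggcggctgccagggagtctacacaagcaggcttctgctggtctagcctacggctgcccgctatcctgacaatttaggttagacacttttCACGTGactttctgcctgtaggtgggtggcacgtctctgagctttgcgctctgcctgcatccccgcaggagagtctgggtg
Col27a1: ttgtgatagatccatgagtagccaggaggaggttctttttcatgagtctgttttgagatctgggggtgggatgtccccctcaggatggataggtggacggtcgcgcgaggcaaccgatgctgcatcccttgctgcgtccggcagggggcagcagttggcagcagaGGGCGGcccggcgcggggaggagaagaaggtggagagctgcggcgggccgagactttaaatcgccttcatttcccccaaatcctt
Col3a1: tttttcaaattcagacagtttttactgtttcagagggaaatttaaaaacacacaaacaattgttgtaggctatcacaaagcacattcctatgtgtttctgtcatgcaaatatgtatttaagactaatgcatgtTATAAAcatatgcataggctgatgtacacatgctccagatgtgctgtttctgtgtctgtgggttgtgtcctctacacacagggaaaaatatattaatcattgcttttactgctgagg
Col8a1: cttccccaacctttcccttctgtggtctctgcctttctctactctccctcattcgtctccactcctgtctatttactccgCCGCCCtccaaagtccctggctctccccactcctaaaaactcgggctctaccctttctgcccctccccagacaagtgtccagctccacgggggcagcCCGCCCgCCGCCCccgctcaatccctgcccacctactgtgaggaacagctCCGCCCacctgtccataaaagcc
These stretches are chr15:85205699-85205948 on the plus strand, chr4:63215162-63215411 on the plus strand, chr1:45311288-45311537 on the plus strand and chr16:57754738-57754987 on the minus strand. None overlapped an annotated exon, although that of Col27a1 lies inside the gene as GENCODE draws it (chr4:63214004-63334991). The Fbln1 stretch held 1 CACGTG, 81 bases before the start, a hexamer found in 6.02% of 32851 promoter windows of the same length. Fbln1 has a further annotated start, whose stretch overlapped an exon and is not printed. CACGTG lay 140 bases and a GGGCGG 11 bases before that start. Col27a1 held 1 GGGCGG and Col8a1 held 4, a motif in 32.7% of windows, and Col3a1 held 1 TATAAA, in 12.4%. A match is a description of the letters and not a site of binding.

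Cocaine was compared with saline within each labelled genotype, the question the study put to this tissue. A gene was called when its adjusted p was under 0.05 over all tested genes and its log2 fold change was at least 0.5 in size, by limma on log2(scaled TPM + 0.5). Fold changes on this scale understate those of low genes. In the libraries labelled control, 2 of the 29 members were called lower after cocaine, Fbln1 and Fbn1, beside 1.66% of all genes, and none higher, beside 1.43%. At an unadjusted p under 0.05, 4 members were higher and 5 lower, beside 37.1% of all genes in either direction.

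Fbln1 encodes fibulin-1, a secreted calcium-binding protein of basement membranes and elastic fibres (chr15:85205949-85286535). Its scaled TPM was 6.93, 8.74, 9.53 and 8.31 in control saline and 5.76, 4.42, 4.78 and 6.88 in the libraries labelled control cocaine. The groups did not overlap, by a margin of hundredths between the lowest saline and the highest cocaine library. Fbln1 fell by 0.58 on the log2 scale (SE 0.18, adjusted p = 0.0301). The exact two-sided permutation test gave 0.0286, the smallest p that 4 against 4 libraries allow. Leaving out control saline replicate 1 gave -0.68 (adjusted p = 0.0273), but without control saline replicate 2, 3 or 4 or the library labelled control cocaine replicate 2 or 3 the adjusted p ran from 0.0596 to 0.0805 and the call was lost.

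Fbn1, which encodes the main microfibril protein fibrillin-1 (chr2:125300594-125507993), showed the other decrease. It was at 1.91, 1.53, 1.40 and 1.40 in control saline and at 0.865, 0.877, 1.30 and 0.797 in the libraries labelled control cocaine. All cocaine libraries were below all saline libraries, with the one labelled replicate 3 close to them. Fbn1 fell by 0.50 on the log2 scale (SE 0.12, adjusted p = 0.0101), just past the fold minimum. Without control saline replicate 1, which also held the highest Fbn1 level of all libraries, the value was -0.43 (adjusted p = 0.0289) and no longer reached that minimum. The same happened without cKO saline replicate 1 or 2 or the library labelled control cocaine replicate 1, 2 or 4 (-0.50 to -0.45, adjusted p = 0.0124 to 0.0308).

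Only differences under the fold minimum passed the adjusted p in the other direction. Col26a1 had a log2 difference of 0.29 (SE 0.09, adjusted p = 0.0340), with 2.41 to 2.54 in control saline and 2.87 to 3.24 in the libraries labelled control cocaine. Its groups did not overlap. On the adjusted p alone, 2 members were higher, beside 14.2% of all genes. In all, 2 members were non-overlapping and higher, beside 14.1% of all genes, and 2, Fbln1 and Fbn1, lower, beside 11.1%. The median log2 fold change of the 29 members was -0.11, beside 0.0012 over all genes, and 11 were positive, beside 50.2% of all genes. The median was -0.02 with 13 positive without control saline replicate 1, and -0.07 without the library labelled control cocaine replicate 3. Leaving out control saline replicate 3 lowered the median to -0.17, and leaving out the library labelled control cocaine replicate 1 lowered the median to -0.15. Without control saline replicate 1 and the 2 libraries lowest in ependymal markers, a choice made after seeing the data, it was 0.05 with 16 positive. Marker medians in the same comparison were -0.97 for choroid plexus, -0.74 for ependyma and -1.71 for hypothalamus, and their part in the members' median was not tested.

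In the libraries labelled cKO, 3 of the 29 members were called higher after cocaine, Fbln1, Fn1 and Col27a1, beside 1.97% of all genes, and none lower, beside 1.17%. At an unadjusted p under 0.05, 8 members were higher and none lower, beside 34.0% of all genes in either direction. The group labelled cKO cocaine had 2 libraries, so the exact test of 4 against 2 cannot go below 0.0667, the value it gave for each of the 3 genes. The spread of that group was shared with the other groups in the fit.

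Fbln1 was at 3.22, 4.18, 6.58 and 5.13 in cKO saline and at 9.82 and 10.001 in the libraries labelled cKO cocaine. Every cocaine library was above every saline library, and both were above all the other libraries of the series. Fbln1 rose by 1.02 on the log2 scale (SE 0.22, adjusted p = 0.00662). This call was lost without the library labelled cKO cocaine replicate 2 (1.01, adjusted p = 0.0631) and kept without any other single library.

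Fn1, at chr1:71585520-71653200, encodes the cell-binding matrix glycoprotein fibronectin. After saline its scaled TPM in cKO was 2.86, 3.65, 3.74 and 2.88, and after cocaine 5.61 and 4.60, so that both libraries labelled cKO cocaine were above the 4 of cKO saline. It rose by 0.57 (SE 0.16, adjusted p = 0.0233). In control saline it was at 4.20, 2.66, 2.72 and 2.64, and in the libraries labelled control cocaine at 3.74, 3.98, 4.18 and 3.90, a log2 difference of 0.35 (SE 0.13, adjusted p = 0.0672). The high control saline value is that of replicate 1, and without this library the difference was 0.48 (SE 0.10, adjusted p = 0.00621), still under the fold minimum. The difference between genotypes in the Fn1 response was 0.22 (SE 0.20, adjusted p = 0.609). The Fn1 call was lost without cKO saline replicate 1 or 4 or either library labelled cKO cocaine (0.44 to 0.70, adjusted p = 0.0516 to 0.171).

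Col27a1 encodes a fibrillar collagen known from cartilage. It was at 1.502, 1.93, 1.11 and 1.73 in cKO saline and at 3.18 and 2.35 in the libraries labelled cKO cocaine. It rose by 0.67 (SE 0.22, adjusted p = 0.0457), close to the threshold. In the libraries labelled control, 1.62, 1.48, 1.49 and 1.70 after saline and 0.934, 2.14, 1.47 and 1.14 after cocaine overlapped. Leaving out single libraries moved the adjusted p of Col27a1 between 0.0194 and 0.277, and it was called only without the one labelled control cocaine replicate 1, 2 or 4 or cKO saline replicate 2.

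Col18a1 had a smaller difference in the same direction, 0.48 (SE 0.15, adjusted p = 0.0427), with 2.34, 3.01, 2.20 and 1.80 after saline and 3.37 and 3.45 after cocaine. With it, 4 members passed the adjusted p on the higher side, beside 10.2% of all genes. In all, 7 members did not overlap between cKO saline and labelled cKO cocaine and were higher in the latter, a share near the 22.6% of all genes that did so. The members' median log2 fold change was 0.15, beside 0.01 over all genes, and 24 of 29 were positive, beside 51.8% of all genes. Without the library labelled cKO cocaine replicate 1 the median was 0.23, with 22 positive. It was 0.12 without cKO saline replicate 1, with 24 positive. The ependymal markers had a median of 0.98 and the habenula markers of 0.80 in this comparison, and their part was not tested.

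**Figure D3:**
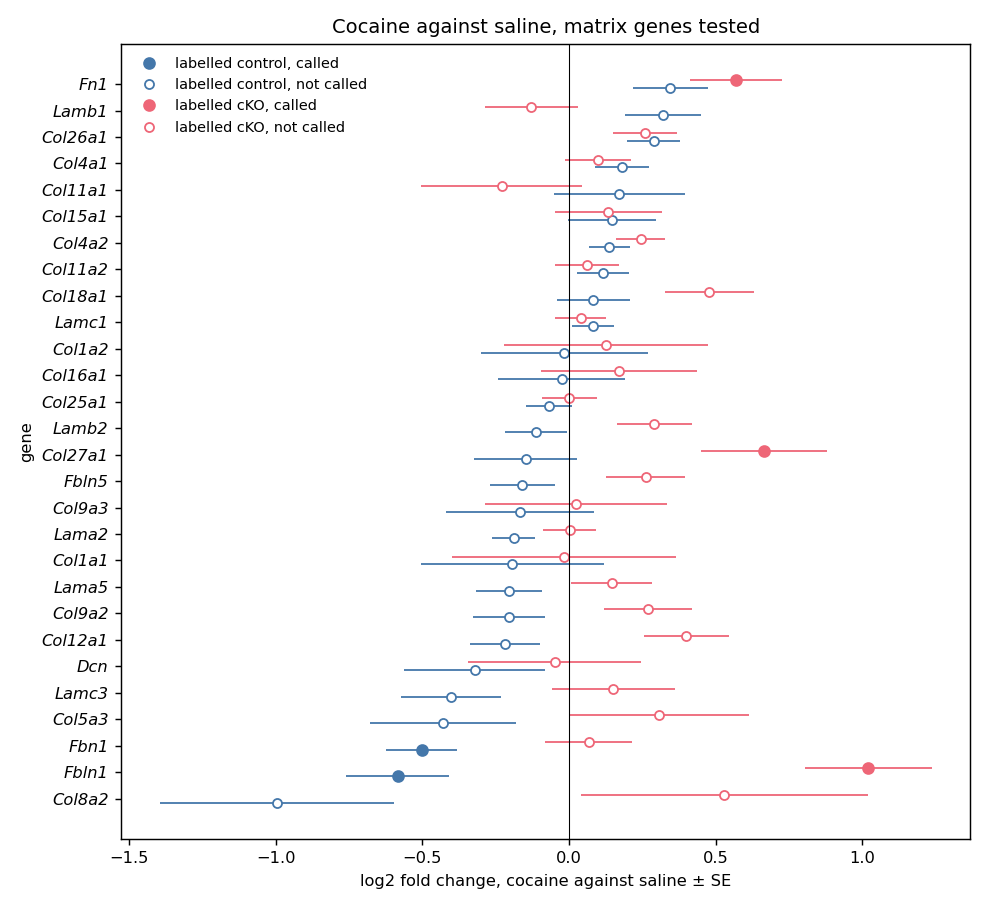
Log2 fold change of cocaine against saline with its SE for the tested members (1 not shown), in libraries labelled control (blue) and cKO (red), ordered by the control value. Filled points are called; Fbln1 lies at -0.58 in the first and at 1.02 in the second.

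Fbln1 was the only member called for a difference in response between the labelled genotypes. Its interaction, the cocaine response in cKO minus that in control, was 1.61 (SE 0.28, adjusted p = 0.0245), and 1 of 29 members was called beside 0.49% of all genes called higher and 0.312% lower. At an unadjusted p under 0.05 there were 9 members, beside 18.1% of all genes. The call was lost without control saline replicate 2 and without either library labelled cKO cocaine (1.58 to 1.62, adjusted p = 0.0563 to 0.0920). With the genotype taken from the tag, the Fbln1 response was 0.0021 in labelled control and 0.43 in labelled cKO, and the interaction 0.43 (adjusted p = 0.873). That grouping goes against Maged1 in 4 saline libraries. The next largest interaction, that of Col8a2, was 1.53 (SE 0.63, adjusted p = 0.223). The responses and the interaction take the genotype of the cocaine libraries as labelled, which Maged1 goes against, and with other genotypes for these libraries they would be other contrasts. All contrasts use the same 14 libraries, so the 2 responses and the interaction are not separate measurements.

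Other quantities were set beside the Fbln1 levels of the groups. Fbln1 means were 8.38 ± 1.09 in control saline, 5.46 ± 1.11 in labelled control cocaine and 4.78 ± 1.43 in cKO saline (SD, n = 4 each), and 9.91 ± 0.13 in labelled cKO cocaine (SD, n = 2). Maged1 was likewise high in the first and last and low in the other two. After saline, the summed ependymal markers were 32.1 to 38.8 in control and 5.01 to 22.6 in cKO; after cocaine they were 4.60 to 33.2 where labelled control and 28.5 and 38.6 where labelled cKO. The 8 hypothalamic markers summed after saline to 134.3 to 466.2 in control and 11.2 to 147.2 in cKO. After cocaine they summed to 4.16 to 127.8 where labelled control and to 35.6 and 75.1 where labelled cKO. Oxt, the oxytocin gene, was listed at 0 in 3 libraries labelled control cocaine. The part of these in the Fbln1 values was not tested. The 2 libraries lowest in ependymal markers were then left out, a choice made after seeing the data. Fbln1 kept its calls in labelled control, at -0.69 (adjusted p = 0.00929), and in labelled cKO, at 0.87 (adjusted p = 0.00799). The interaction call was also kept, at 1.56 (adjusted p = 0.0235). Leaving these libraries out did not even out the ependymal sums between groups. The remaining cKO saline libraries had 16.2 to 22.6, all below the range of control saline. The remaining labelled control cocaine libraries had 19.1 to 33.2. The part of ependymal tissue in the Fbln1 values was therefore not tested by this refit.

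**Figure D4:**
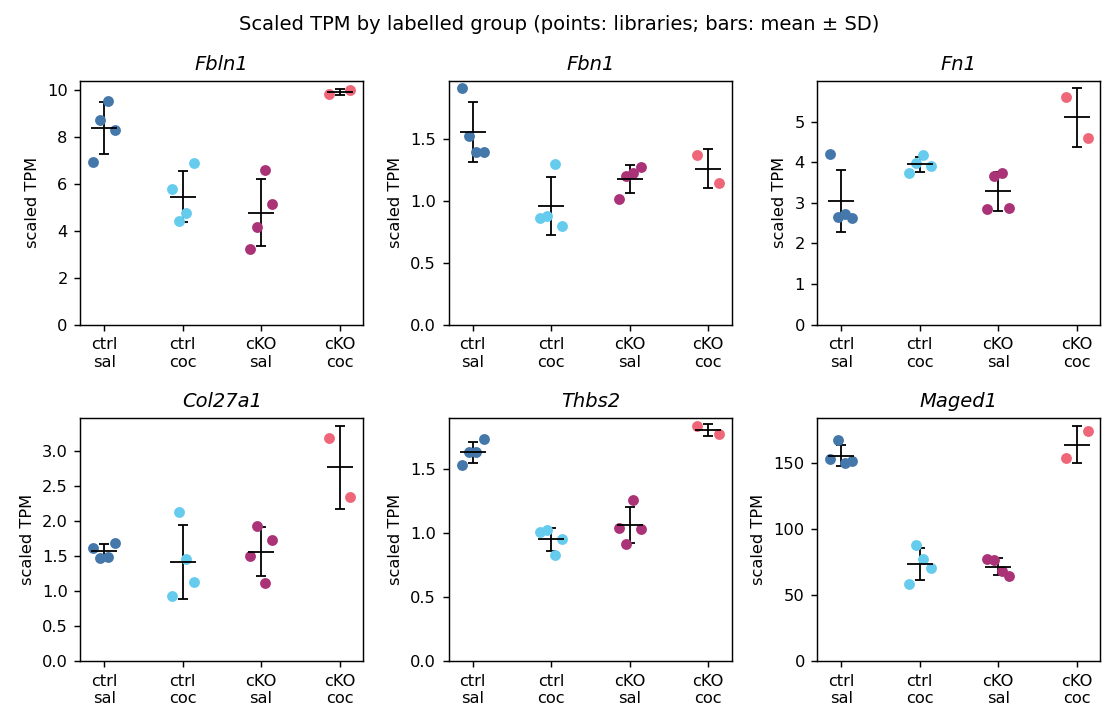
Scaled TPM per library (points) with mean ± SD (bars) in the 4 labelled groups for the 4 called members, for Thbs2 and for Maged1. Fbln1, Thbs2 and Maged1 are each high in control saline and labelled cKO cocaine and low in the other groups.

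No member was called between genotypes. In saline, 0 of 29 passed the limma test, beside 0.0445% of all genes called lower and 0.00742% called higher, and 10 members had an unadjusted p under 0.05, all lower in cKO, beside 16.7% of all genes in either direction. Fbln1 had -0.78 (SE 0.18, adjusted p = 0.0783), and without cKO saline replicate 3 it was called, at -0.94. Lamc3, a laminin gamma chain, had -0.53 (SE 0.17, adjusted p = 0.157), with 3.29, 2.66, 2.87 and 3.35 in control and 1.72, 2.22, 1.82 and 2.08 in cKO. Those groups were apart, as for 6 members in all, beside 6.44% of all genes. Col8a2 had the widest difference, -1.22 (SE 0.40, adjusted p = 0.159), with 5.88, 1.77, 1.37 and 1.85 in control and 0.261, 0.945, 0.669 and 1.17 in cKO.

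Direction in saline leaned to one side: 25 of 29 members were lower in cKO, with a median of -0.26, while 50.9% of all genes were higher. Without control saline replicate 1 the count was 21 and the median -0.09, and with the genotype from the tag 23 and -0.09. Markers of other tissue were also lower in cKO saline, with medians of -1.33 for choroid plexus, -1.33 for hypothalamus, -1.26 for habenula and -0.91 for ependyma, and their part in the lean was not tested. Members differed in how far control saline replicate 1 carried the difference. Col1a2 went from -0.41 with it to -0.03 without it, Col8a2 from -1.22 to -0.83 and Lamb2 from -0.33 to -0.21. Fbln1 went from -0.78 to -0.87, Col18a1 from -0.40 to -0.43 and Lamc3 from -0.53 to -0.50. In cocaine, 0 of 29 members were called by limma between labelled cKO and labelled control, beside 0.0148% of all genes higher and 0.0223% lower, and 3 had an unadjusted p under 0.05, all higher, beside 11.9% of all genes. These were Fbln1 at 0.82 (SE 0.22, adjusted p = 0.222), Col27a1 at 0.80 (SE 0.22, adjusted p = 0.224) and Col12a1 at 0.36 (SE 0.14, adjusted p = 0.381). The median of the members was -0.0050, beside -0.0050 over all genes, and 14 were positive. Without the library labelled control cocaine replicate 1 it was 0.09 with 17 positive, and without the one labelled cKO cocaine replicate 1 it was 0.05 with 16 positive.

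Of the 7 members with the highest means in control saline, Fbln1 was called as described and the other 6 were not called. Col25a1 had log2 differences of -0.07 (SE 0.08) in labelled control and 0.0009 (SE 0.0941) in labelled cKO, and Lamc1, the gamma chain of most laminins, had 0.08 (SE 0.07) and 0.04 (SE 0.09). Col4a2 had 0.14 (SE 0.07, adjusted p = 0.167) and 0.24 (SE 0.08, adjusted p = 0.0587), and Col4a1 0.18 (SE 0.09, adjusted p = 0.172) and 0.10 (SE 0.11, adjusted p = 0.586). Lamb2 had -0.11 (SE 0.11, adjusted p = 0.473) and 0.29 (SE 0.13, adjusted p = 0.131), and Col9a3 -0.17 (SE 0.25) and 0.02 (SE 0.31). None of these 6 genes had an adjusted p under 0.05 in any of the 5 comparisons.

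**Figure D5:**
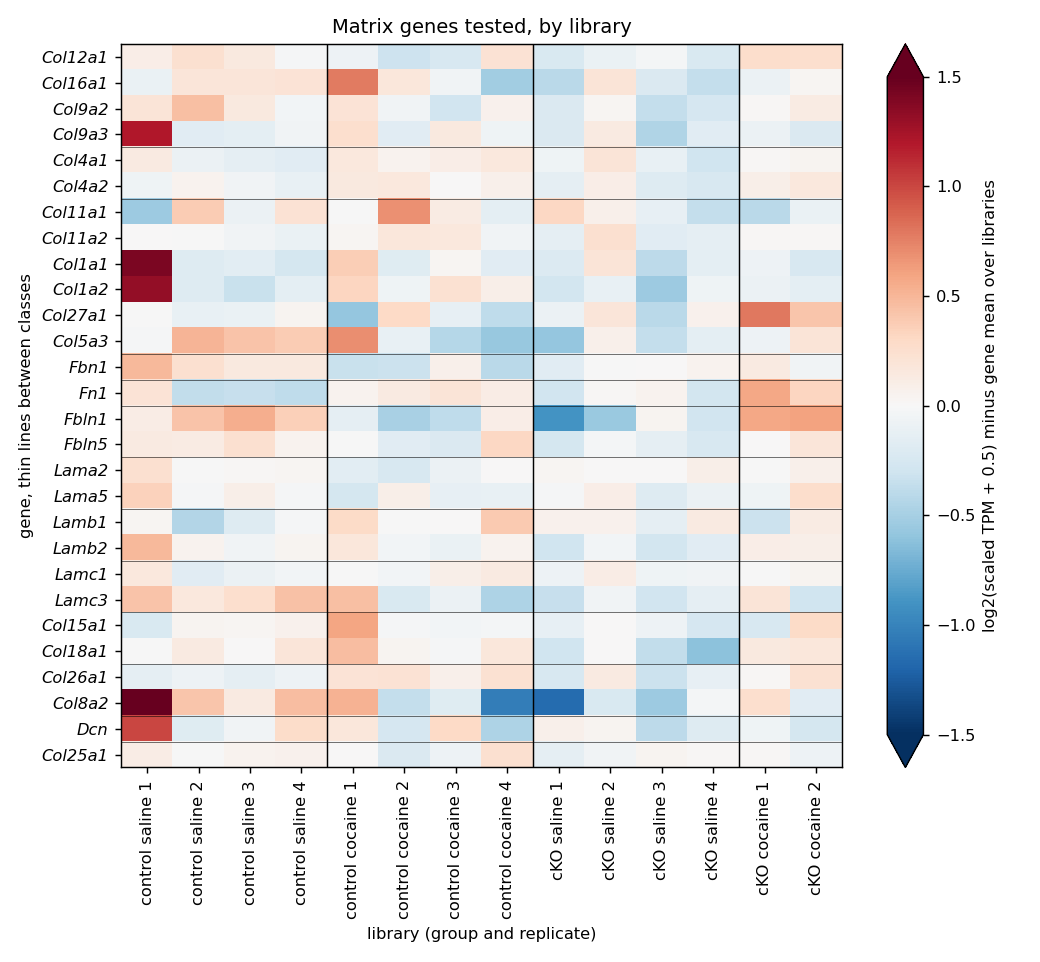
Each tested member's (1 not shown) log2(scaled TPM + 0.5) in each library minus its mean over the 14 libraries, with rows grouped by class and vertical lines between groups. Control saline replicate 1 is red for Col8a2, Col1a1, Col1a2, Col9a3 and Dcn, and Fbln1 is red in control saline and labelled cKO cocaine.

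Other genes of the matrix pathway were counted beside the shares of all genes called. These were 1.43% higher and 1.66% lower in labelled control, and 1.97% and 1.17% in labelled cKO. They were 0.49% and 0.312% for the interaction, and smaller between genotypes. At these shares, lists this short could hold no call. Of 27 genes for collagen processing and cross-linking, 21 were tested and 0 called in any comparison by limma, and of 21 matrix receptors such as integrins and dystroglycan, 12 were tested and 0 called, with median log2 fold changes of -0.06 to 0.07 over all comparisons. Of 35 other matrix proteins 20 were tested, and in labelled control 1 was called lower and 1 higher. In labelled cKO, between labelled genotypes after cocaine and for the interaction, 1 was called, higher each time. Thbs2, which encodes the matricellular protein thrombospondin-2, fell by 0.55 in labelled control (SE 0.09, adjusted p = 9.47e-04) and rose by 0.57 in labelled cKO (SE 0.11, adjusted p = 0.00334), with an interaction of 1.12 (SE 0.14, adjusted p = 0.00357), and was higher in labelled cKO than labelled control after cocaine by 0.67 (SE 0.11, adjusted p = 0.0479). Its scaled TPM was 1.53, 1.64, 1.63 and 1.73 in control saline, 1.015, 1.025, 0.830 and 0.953 in labelled control cocaine, 1.045, 0.918, 1.26 and 1.03 in cKO saline and 1.84 and 1.78 in labelled cKO cocaine. Like Fbln1, Thbs2 was high in control saline and labelled cKO cocaine and low in the other two groups. Tnc, the tenascin-C gene, rose by 0.85 in labelled control (SE 0.21, adjusted p = 0.0115).

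Of 19 matrix proteases and inhibitors, 12 were tested and 1 was called, Mmp16, a membrane-bound metalloproteinase. It fell by 0.73 in labelled cKO (SE 0.22, adjusted p = 0.0329), where 1.17% of all genes were called lower. Among markers of vessel and fibroblast cells, Kdr, the endothelial VEGF receptor, fell by 0.52 in labelled cKO (SE 0.17, adjusted p = 0.0428), and no tested fibroblast, pericyte or choroid plexus marker was called in any comparison. Such short lists could hold no call at the shares of all genes given above. Rsph1, an ependymal cilium gene, rose by 1.27 in labelled cKO (SE 0.39, adjusted p = 0.0354). Of the 7 hypothalamic markers tested, 4 fell in labelled control, among them Oxt at -7.90 (SE 0.77, adjusted p = 6.06e-05) and Avp at -5.08 (SE 0.65, adjusted p = 3.09e-04), and Gal fell by 1.46 (SE 0.24, adjusted p = 0.00117). Oxt was also lower in cKO saline than in control saline, at -5.07 (SE 0.77, adjusted p = 0.0178). For the interaction 4 hypothalamic markers were called higher, among them Oxt at 10.41 (SE 1.22, adjusted p = 0.00303), Gal at 1.88 (SE 0.37, adjusted p = 0.0392) and Trh at 2.23 (SE 0.47, adjusted p = 0.0452). The Oxt values depend on the pseudocount, since Oxt was at 0 in 3 libraries. Mobp, a myelin gene, rose by 0.60 in labelled control (SE 0.15, adjusted p = 0.0108). Of the thalamic markers, Lef1 rose by 0.54 in labelled control (SE 0.15, adjusted p = 0.0174) and Gbx2 by 0.95 in labelled cKO (SE 0.24, adjusted p = 0.0138). Cldn5, which marks endothelial tight junctions, was at 9.21 to 17.1 over the 14 libraries and highest in control saline replicate 1. Pdgfrb, which marks pericytes, was at 2.83 to 4.31. Slc6a13, which marks brain fibroblasts, was at 0.420 to 1.38 and also highest in control saline replicate 1.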

How the data were processed

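Stranded, ribosomal RNA-depleted libraries of microdissected thalamus were sequenced, and the authors mapped paired reads to GRCm38.p4 with STAR 2.5.3a, quantified transcripts with salmon and summarized them with tximport (length-scaled). The deposited values are TPM, which are corrected for length and total, so depth and counting error are unknown. In 2 tables the deposited TPM carry a decimal comma (unit recorded as other), read as a decimal point.

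TPM were divided by TMM factors computed without weights over 13471 genes that reached 1 TPM in 3 or more libraries (trims of 30% and 5%). The log2(scaled TPM + 0.5) of 14 libraries was fitted with limma 3.58.1 (R 4.3.3) as 4 group means with an intensity trend, and p-values were adjusted by Benjamini-Hochberg over all tested genes. Whole-gene TPM was used, and reads shared between paralogous or overlapping genes were split by the authors' quantification. The script was tested on simulated data. The labels give replicate numbers and do not name single mice, and the paper describes the samples as independent. Annotation is GENCODE M21 and promoters are RefSeq GRCm38.p6. Counts used by the authors are not used here.

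The values of 1 member are not reported here, although it is in the counts and medians. Members and lists were chosen with earlier results of these data known. Named are Maged1, every called member, the highest member of each class, up to 3 called genes per list and comparison, set markers and neighbouring pairs; members and markers named for control saline replicate 1, for the filter's edge or for unadjusted results were chosen after their values were seen. Alternatives were other scalings, pseudocounts, filters, thresholds, groupings and each library left out.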

Additional observations from a re-analysis of the deposited data

Results flagged for a closer look

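Within groups of 4 libraries, 13 of 87 sets of values over the 29 tested members had 1 library far from the other 3 by Dixon's criterion. Chance gives about 1 in 20 for independent sets. These sets share libraries, so 1 unusual library can flag many members together and that rate is no test of the count. Control saline replicate 1 accounted for 8 of the 13. It also stood apart for 3 members below the filter, Col3a1, Col8a1 and Lum, which were examined because they were seen to be high there and are not among the 13. It was the high library for Col1a2 (6.46 scaled TPM), Col1a1 (3.82), Col3a1 (1.18), Col8a2 (5.88), Col8a1 (2.41), Col9a3 (10.3), Lum (1.79), Fn1 (4.20) and Lama2 (2.48), and the low library for Col16a1 (3.20) and Col15a1 (1.86). The summed choroid plexus markers of this library were 1488 scaled TPM and its fibroblast markers 68.2; their part in these values was not tested.

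The other 5 were spread over libraries. They were Col15a1 in the library labelled control cocaine replicate 1 (3.65 scaled TPM, high), Col26a1 and Fbn1 in the one labelled control cocaine replicate 3 (2.87, low, and 1.30, high), and Col11a2 and Lamc1 in cKO saline replicate 2 (3.13 and 4.90, both high). The Fbn1 call in labelled control held without that replicate, at -0.61.

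Fbln1 was taken up because its cocaine response differed between the labelled genotypes by the interaction term, at 1.61 on the log2 scale.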

How the results depend on the processing

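Depth is unknown from TPM, the group labelled cKO cocaine has 2 libraries, and Maged1 goes against the labels of the cocaine libraries. After cocaine in labelled control, 2 members were called lower, and the count was 7 with TPM as deposited; 1 with quantile scaling, with a pseudocount of 1, with a mean of at least 5 TPM, with the 2 libraries low in ependymal and habenula markers left out, and with these and control saline replicate 1 left out (both chosen after seeing the data); and 0 with genotype from the tag, with the 10 libraries whose labels agree and at a log2 minimum of 1. Called higher were 0, or 2 with no fold minimum. In labelled cKO 3 were called higher, and the count was 1 with TPM as deposited, with a mean of at least 5 TPM, at a log2 minimum of 1 and with the 2 libraries left out, and 0 with agreeing labels. The interaction count of 1 was 0 with TPM as deposited, genotype from the tag and agreeing labels. With TPM as deposited the median of all genes was -0.34 in labelled control and -0.35 in labelled cKO, and members with positive values went from 11 to 2 and from 24 to 7. Leaving out each library gave 0 to 4 called lower in labelled control, 0 to 4 called higher in labelled cKO, 0 to 1 for the interaction and 0 to 1 lower in cKO saline against control saline. The 4 called lower were Col5a3, Col8a2, Fbln1 and Lamc3, without the library labelled control cocaine replicate 1. With genotype from the tag, which goes against Maged1 in 4 saline libraries, the Fbln1 response in labelled control turned from -0.58 to 0.0021. Fbln1 in labelled cKO was called in 27 of 30 alternatives. The cause of these moves was not tested.

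No pairing of the mice by replicate number was seen, although these correlations cannot exclude one. Deviations from group means correlated at a mean of -0.01 in 18 same-numbered pairs (-0.16 to 0.10) and 0.0046 in 54 others (-0.21 to 0.24). With the replicate block 1 member, Fbln1, was called higher in labelled cKO against 3, and the count of 2 lower in labelled control and of 1 for the interaction was the same. The members' median in labelled cKO was 0.09 with 22 positive with the block, against 0.15 with 24. The lone library left in an arm was assumed to vary like the other groups. For the interaction, no fit of the compared groups alone exists, and a mean of at least 5 TPM gave no value for Fbn1, Fn1 and Col27a1.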
